A study of Equus caballus with 31 samples.

Results

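Fibronectin (FN1), thrombospondin 1 (THBS1), versican (VCAN), osteonectin (SPARC) and transforming growth factor beta induced protein (TGFBI) are secreted proteins of the extracellular matrix, and their 5 genes are followed here in joint fluid and in blood. They were taken by symbol from 16799 gene symbols that the fluid and blood tables share. They were chosen by their read counts in OA and healthy horses, which were already known in both tissues, so their changes with disease are given as a description and support nothing by themselves. The series holds RNA sequencing of horses labelled WT: joint (synovial) fluid cells, and mononuclear cells of the blood (PBMC). The groups were OA fluid (n = 5), healthy fluid (n = 11), OA PBMC (n = 6) and healthy PBMC (n = 9), where OA is osteoarthritis by the labels. Both samples were sequenced for 13 horses, 5 with OA and 8 healthy. The fluid cells had been released with hyaluronidase and pelleted, both tissues are labelled as mixed mononuclear cells, and each horse is named as in the labels (OA_ or ORC_ with a number).

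Fibronectin is laid down by connective tissue cells as fibrils that integrins grip, and other matrix proteins are built onto it. Versican binds hyaluronan, the main polymer of joint fluid, while thrombospondin 1, SPARC and TGFBI are matricellular proteins, which tune the contact between cells and matrix more than they bear load. Fibroblasts make all of them, but monocytes and macrophages also make versican, thrombospondin 1, TGFBI and fibronectin, and platelets carry thrombospondin 1 and SPARC in their granules.

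In the horse build EquCab3.0, as the files give it, FN1 (ENSECAG00000000701) lies on chromosome 6 from 5257446 to 5322595 and THBS1 (ENSECAG00000008923) on chromosome 1 from 150310066 to 150326659. The other 3 genes lie on chromosome 14, SPARC (ENSECAG00000013874) from 25683322 to 25713921, TGFBI (ENSECAG00000020193) from 39200003 to 39358315 and VCAN (ENSECAG00000019596) from 83302465 to 83406983. The span given for TGFBI also holds the rows of SMAD5 and SMIM32, so the assignment of reads where these genes overlap is uncertain. The strand setting of the counting is not given in the sources used here.

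Values are read counts scaled by the authors to a common level within each tissue, called normalised counts below. The fluid libraries had 25.9 to 36.3 M reads each, and those of PBMC 23.9 to 34.8 M reads. In PBMC the OA libraries were deeper, at 33.5 ± 1.14 M reads (SD, n = 6) against 27.5 ± 2.31 M reads in healthy horses (SD, n = 9). Within fluid, OA_9570 stood apart from the other OA horses: its summed stromal fibroblast markers were 2799, against 184975 to 799827 in the other 4. T cell markers were lower in OA fluid, with a summed level of 7380 to 31951 in OA and 33744 to 120169 in healthy horses, and 11 of 12 of these genes fell, where 13.6% of all genes did. In healthy horse ORC_202 the T cell sum was the lowest of the healthy horses. The part of T cells in the values below was not tested. The labels name no sequencing batch, so a batch that followed disease cannot be told apart from it.

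In OA fluid all 5 genes were above healthy fluid in the fit across all genes (limma on log2(value + 1), adjusted p below 0.05), where 14.4% of 13885 genes were called higher. The estimated log2 change, OA minus healthy, was 4.06 for FN1 (SE 0.89), 3.09 for SPARC (SE 0.68), 3.04 for VCAN (SE 0.87), 2.71 for THBS1 (SE 0.63) and 1.24 for TGFBI (SE 0.45), whose call was lost under several other settings given below. The median over the 5 genes was 3.04, against 0.08 over all genes tested. In OA PBMC 4 of the 5 were called higher, where 3.2% of 13072 genes were: FN1 by 3.73 (SE 1.0), THBS1 by 1.94 (SE 0.43), VCAN by 1.43 (SE 0.25) and TGFBI by 0.88 (SE 0.23). SPARC had an estimate of 1.29 (SE 0.49) in PBMC and was not called. Because the genes were picked for these comparisons, the counts are not read against the background.

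**Figure D1:**
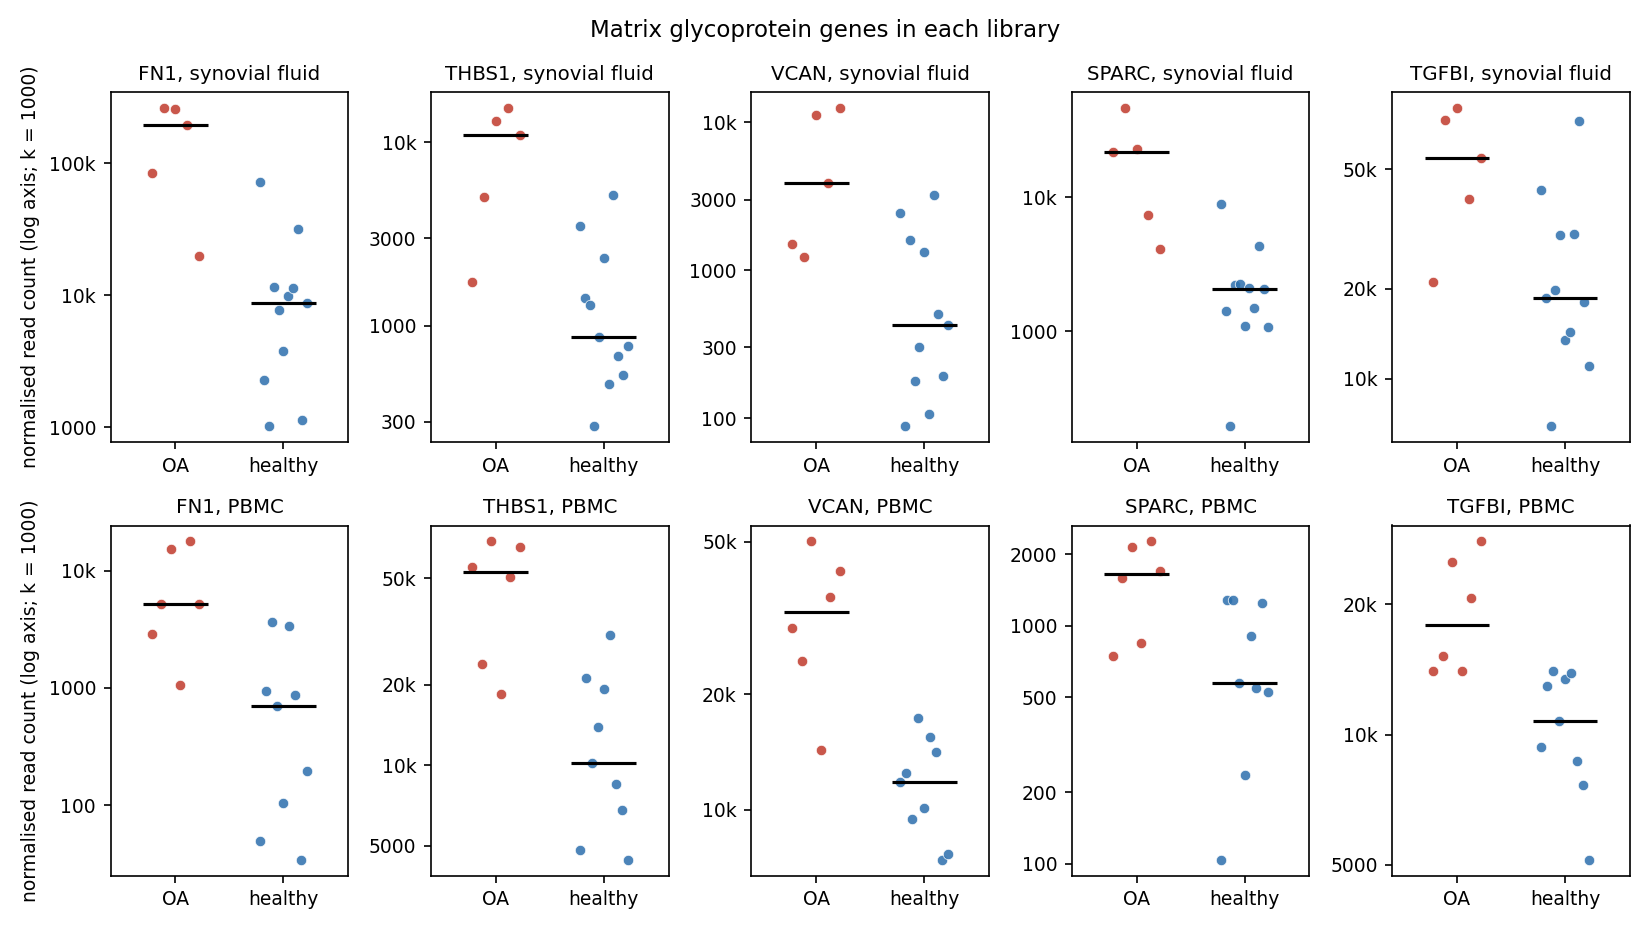
Normalised read count of each gene (log axis) in every library, with synovial fluid in the upper row and PBMC in the lower row, OA left of healthy, and a bar at each group's median. TGFBI in PBMC is the panel in which all 6 OA points lie above all 9 healthy points, and in the FN1 fluid panel 1 OA point lies inside the healthy range.

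FN1 encodes the fibril-forming adhesive protein itself. Its normalised count in OA fluid was 83979.5 in OA_1038, 261372 in OA_2615, 256853 in OA_3850, 194900 in OA_9350 and 19962.7 in OA_9570. Healthy fluid ran from 1019 in ORC_196 through a median of 8756 to 72149 in ORC_188. So 4 of 5 OA libraries were above every healthy library, and OA_9570 fell below ORC_188 and ORC_205, the healthy horses with the highest values. The means were 163413 ± 107478 in OA and 14658 ± 20881 in healthy fluid (SD, n = 5 and 11). Of all genes tested in fluid, 158 had a larger log2 change.

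In PBMC, FN1 ran from 1053 in OA_4110 through a median of 5210.11 to 17701 in OA_9350 among OA horses, and from 34.4 in ORC_208 through 699.0 to 3660 in ORC_197 among healthy horses. The groups overlapped: 4 of 6 OA libraries were above every healthy one, and OA_4110 and OA_1038 were not. The means were 7904 ± 6908 in OA and 1105 ± 1419 in healthy PBMC (SD, n = 6 and 9). Only 1 of the 13072 genes tested had a larger log2 change. FN1 was also among the most variable genes between healthy bloods, with a 106-fold range and an SD of 2.48 on the log2 scale, which 0.344% of genes exceeded. Its call in PBMC was lost in 9 of the 15 fits that left out a single library, with no filter on low values and with edgeR.

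THBS1 encodes a matricellular protein that binds CD36 and CD47 and can activate latent TGF-beta. Its normalised count in OA fluid was 1733 in OA_1038, 5011 in OA_2615, 12990 in OA_3850, 15389 in OA_9350 and 10887 in OA_9570. Healthy fluid ran from 283.1 in ORC_197 through a median of 869.8 to 5160.24 in ORC_202. The 3 highest OA libraries were above every healthy one, while OA_1038 and OA_2615 were inside the healthy range. In PBMC, THBS1 ran from 18489.9 in OA_4110 through 52866 to 68759 in OA_3850 among OA horses, and from 4433 in ORC_209 through 10191 to 30807 in ORC_205 among healthy horses. In blood 4 of 6 OA libraries were above every healthy library, and 41 of the 13072 genes tested had a larger log2 change. Its call in PBMC was lost without OA_3850, without OA_9350 and without OA_9570.

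VCAN encodes versican, a large chondroitin sulphate proteoglycan that binds hyaluronan. In OA fluid its normalised count was 1506 in OA_1038, 1233 in OA_2615, 11282 in OA_3850, 3913 in OA_9350 and 12518 in OA_9570. Healthy fluid ran from 88.0 in ORC_192 through 423.8 to 3212 in ORC_202. Again 3 of 5 OA libraries were above every healthy one, and here OA_9570, the OA horse lowest for FN1, was the highest. In PBMC, VCAN ran from 14306 in OA_4110 through 32902 to 50129 in OA_3850 among OA horses, and from 7405 in ORC_208 through 11789 to 17337 in ORC_200 among healthy horses. In blood 5 of 6 OA libraries were above every healthy one, and OA_4110 was not. Healthy bloods had a 2.34-fold range, and 40.6% of genes had a larger SD between them on the log2 scale. The call was lost in fluid without OA_3850 and in PBMC without OA_9570.

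SPARC encodes osteonectin, a collagen-binding matricellular protein. In OA fluid its normalised count was 21669 in OA_1038, 46091 in OA_2615, 22822 in OA_3850, 7339 in OA_9350 and 4077 in OA_9570. Healthy fluid ran from 196.6 in ORC_196 through 2057 to 8802 in ORC_188. So 3 of 5 OA libraries were above every healthy one, and OA_9350 and OA_9570 were inside the healthy range. In PBMC, SPARC ran from 749.9 in OA_1038 through 1644 to 2264 in OA_9350 among OA horses, and from 103.9 in ORC_188 through 574.9 to 1289 in ORC_197 among healthy horses. The blood groups overlapped, with 4 of 6 OA libraries above every healthy one, and the gene was not called in PBMC in any of the 15 fits that left out a library or in the other 9 settings.

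TGFBI encodes a collagen- and integrin-binding protein first found as a TGF-beta target. In OA fluid its normalised count was 21064 in OA_1038, 73320.4 in OA_2615, 80292 in OA_3850, 39839 in OA_9350 and 54639 in OA_9570. Healthy fluid ran from 6931 in ORC_196 through 18569.7 to 72851 in ORC_205. The groups overlapped most for this gene: 2 of 5 OA libraries were above every healthy one, and the fluid call was lost in 11 of 16 fits that left out a library. It was also lost with no filter on low values, equal library totals, TMM scaling, edgeR, only the horses with both samples, and without OA_9570 and ORC_202. In PBMC, TGFBI ran from 14008.4 in OA_4110 through 17907 to 27908 in OA_9570 among OA horses, and from 5140.06 in ORC_209 through 10774 to 14007.1 in ORC_197 among healthy horses. Here all 6 OA libraries were above all 9 healthy libraries, although OA_4110 and ORC_197 were almost level. TGFBI was the 1 gene of the 5 without overlap in PBMC, where 0.612% of all genes tested had every OA library above every healthy one. In fluid none of the 5 was without overlap, and 1.57% of all genes tested were. The PBMC call was lost in 7 of 15 fits that left out a library and among only the horses with both samples.

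**Figure D2:**
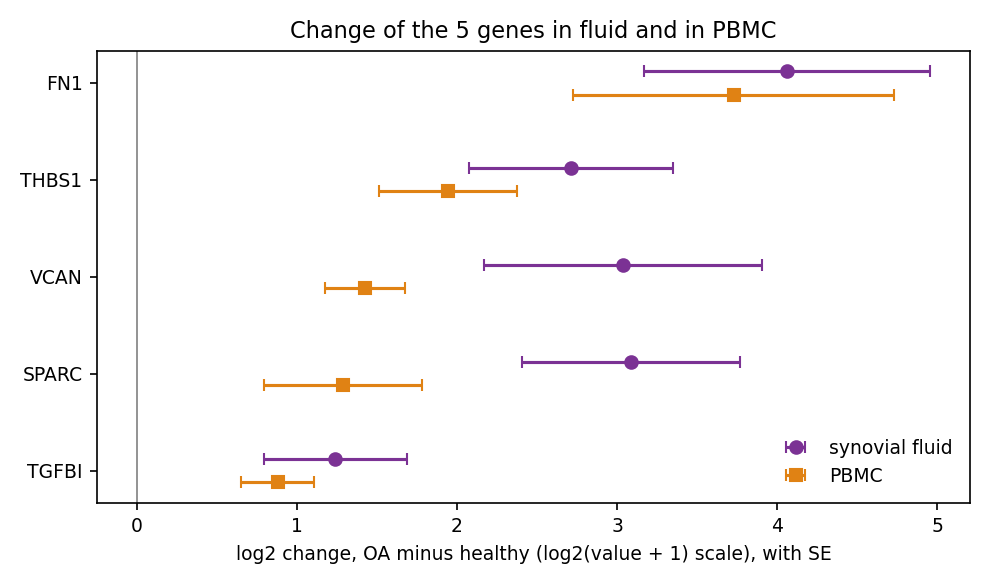
Estimated log2 change, OA minus healthy, of each gene in synovial fluid (circles) and PBMC (squares), with bars of 1 standard error. The estimates run from 0.88 for TGFBI in PBMC to 4.06 for FN1 in fluid, and the fluid estimate of each gene lies right of its PBMC estimate, with overlapping bars for FN1, THBS1 and TGFBI.

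Whether the OA change differed between fluid and blood was tested in 1 fit over all 31 libraries. None of the 5 genes was called by limma, and none had an unadjusted p below 0.05. Of 12733 genes 10.3% were called with a higher OA effect in fluid, and 1519 genes with a lower one. At an unadjusted limma p below 0.05, 2117 genes had a higher OA effect in fluid. The difference, effect in fluid minus effect in PBMC, was 0.33 for FN1 (95% interval -3.02 to 3.69), 0.77 for THBS1 (-0.91 to 2.45) and 0.36 for TGFBI (-0.66 to 1.39). It was 1.61 for VCAN (-0.06 to 3.29) and 1.80 for SPARC (-0.08 to 3.67). Each interval holds 0 and also differences of over 1 log2 unit, so the effects are not shown to be alike. With each horse's fluid paired to its own blood (the replicate block, 13 horses), the difference for FN1 turned to -0.54, and VCAN and SPARC gave 1.21 and 1.35. None was called with the block either. SPARC was called without ORC_188 (2.34, limma adjusted p = 0.0296) and in none of the other 17 fits that left out a horse, whose adjusted p reached 0.336.

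The tissue in which each transcript was the more abundant split the 5 genes. In CPM, reads scaled to the same total over the shared symbols in every library, FN1 averaged 4983 CPM in OA fluid, 504.0 in healthy fluid, 267.0 in OA PBMC and 36.8 in healthy PBMC. SPARC averaged 622.2, 84.0, 52.6 and 25.1 CPM in the same 4 groups. For TGFBI the order was the same, with 1639, 846.0, 661.0 and 358.1 CPM. In each of the 13 horses with both samples these 3 genes were higher in fluid than in blood.

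THBS1 and VCAN ran the other way. THBS1 averaged 274.9 CPM in OA fluid, 53.3 in healthy fluid, 1590 in OA PBMC and 454.3 in healthy PBMC. VCAN averaged 184.8, 32.0, 1109 and 399.4 CPM in that order of groups. Both were lower in fluid than in blood in 13 of 13 horses. The median log2 ratio of fluid to PBMC was -2.41 for THBS1 in OA horses and -2.98 in healthy horses, and for VCAN -3.48 and -4.52. The 2 tables were scaled separately, so levels across tissues are a description with no test. With the groups ordered by their mean CPM, neighbouring groups overlapped between horses for each of the 5 genes. This holds for TGFBI in PBMC too on this scale, with 471.7 CPM in the lowest OA and 497.4 in the highest healthy library.

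**Figure D3:**
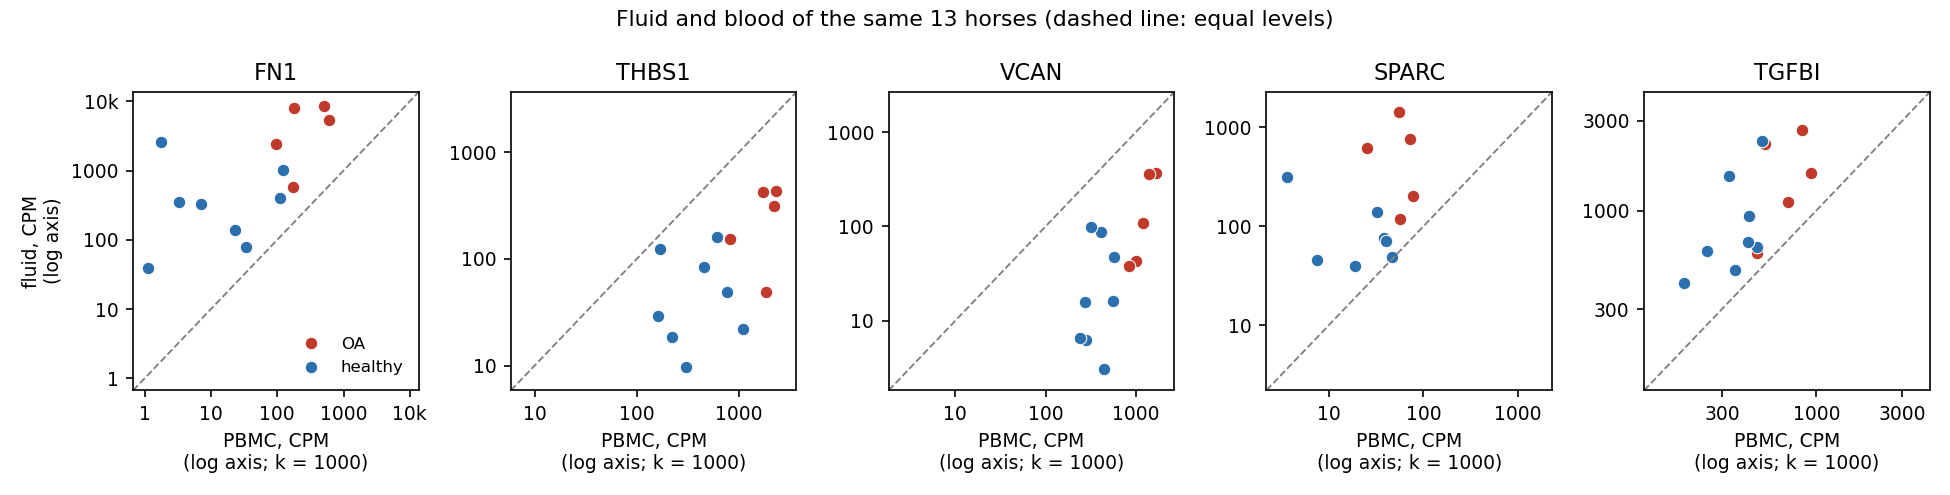
CPM in fluid (vertical, log axis) against PBMC (horizontal, log axis) of the same 13 horses, OA in red and healthy in blue, with a dashed line at equal levels. FN1, SPARC and TGFBI lie above the line in 13 of 13 horses, and THBS1 and VCAN below it in 13 of 13.

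Within healthy horses the fluid level of a gene did not detectably follow its blood level. Over the 8 healthy horses with both samples, Pearson's r between log2 fluid and log2 PBMC values was 0.11 for FN1 (exact permutation p = 0.777), 0.10 for THBS1 (exact p = 0.808), 0.27 for VCAN (exact p = 0.497), -0.44 for SPARC (exact p = 0.308) and 0.52 for TGFBI (exact p = 0.146), two-sided and unadjusted over these 5 relations. Spearman's rho was 0.24 (exact p = 0.582), 0.07 (exact p = 0.882), 0.26 (exact p = 0.536), -0.02 (exact p = 0.977) and 0.62 (exact p = 0.115) in that order of genes. The median r over all 12733 genes was 0.33, and 31.8% of genes had an r at least as high as TGFBI, against 95.3% for SPARC. Leaving out the 2 horses farthest from the median fluid value gave r of 0.24, -0.14, 0.48, 0.53 and 0.72 (n = 6), so the sign for THBS1 and SPARC rested on those horses. TGFBI reached an exact permutation p = 0.0433 without ORC_188, and its r ran from 0.26 to 0.62 over the 8 fits that left out a horse. Over all 13 horses, with group means taken out, r was 0.16, 0.13, 0.44, -0.36 and 0.51, with permutation p of 0.634, 0.677, 0.127, 0.192 and 0.087. Among the OA horses there were 5 pairs, too few for a correlation.

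Single horses show both patterns. ORC_188 had the highest healthy fluid values of FN1 (72149) and SPARC (8802) and, in its blood, an FN1 count of 49.8, the second lowest of the healthy horses, and the lowest SPARC count, 103.9. ORC_205 had the highest healthy fluid value of TGFBI (72851) and the second highest in healthy blood (13839). OA_9570, lowest of the OA horses for FN1 in fluid, had an FN1 count of 5198 in blood, close to the OA median.

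Between horses of one group, the 5 genes moved in fluid as FN1, SPARC and TGFBI on the one hand and THBS1 and VCAN on the other. After group means were taken out, FN1 and SPARC correlated over the 16 fluid libraries with r = 0.76 (permutation p = 0.00106, rho = 0.70 with p = 0.00412), and with 0.80 without ORC_196 and ORC_208, the 2 horses farthest from the median. SPARC and TGFBI gave r = 0.66 (permutation p = 0.0084, rho = 0.66 with p = 0.00951) and FN1 and TGFBI r = 0.63 (permutation p = 0.0128, rho = 0.69 with p = 0.00513). THBS1 and VCAN gave r = 0.77 (permutation p = 0.00105, rho = 0.71 with p = 0.00433), and 0.71 without ORC_202 and OA_1038. Between the 2 sets r was -0.23 to 0.27. These p-values are unadjusted over the 20 relations computed in both tissues.

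Single horses followed this division only in part. OA_9570 was low for FN1 and SPARC relative to the OA mean and high for THBS1 and VCAN. Its TGFBI, at 54639, was not low but slightly above the OA mean of 53831. ORC_196 was low for FN1, SPARC and TGFBI and above the healthy mean for VCAN. ORC_202 was the highest healthy horse for THBS1 and VCAN, and on the log2 scale also above the healthy mean for FN1 and TGFBI. ORC_188 was high for all 5 genes.

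**Figure D4:**
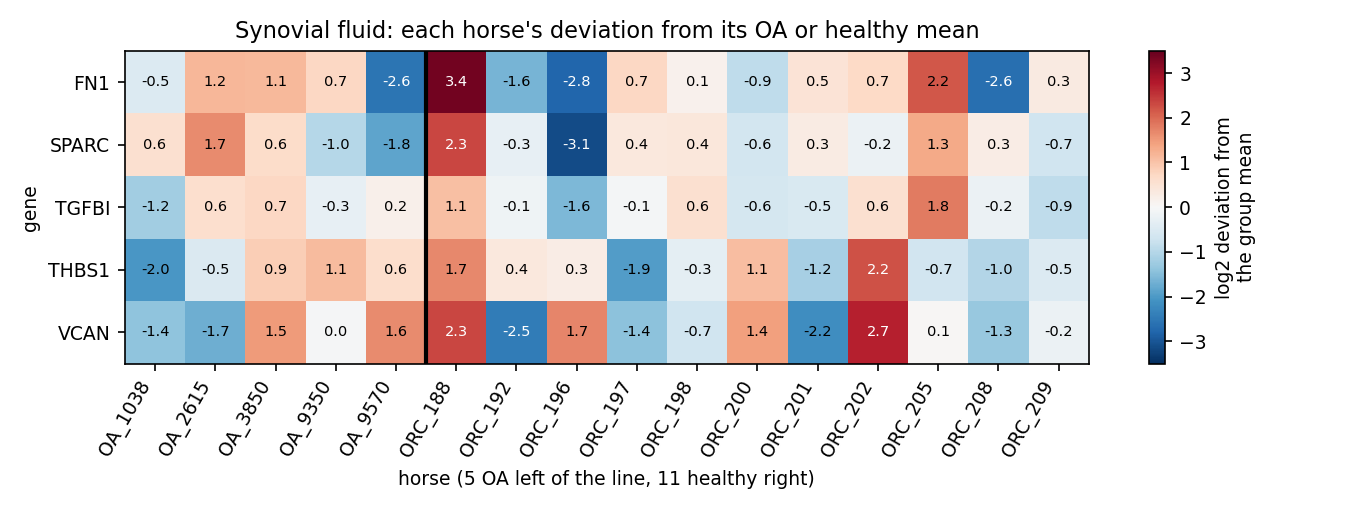
Deviation of each fluid library from its own group's mean on the log2(value + 1) scale, by horse (columns, 5 OA left of the line and 11 healthy right of it) and gene (rows), red above the mean and blue below. FN1, SPARC and TGFBI share most of their colours (r 0.63 to 0.76), as do THBS1 and VCAN (r 0.77), and OA_9570 is blue for FN1 and SPARC and red for THBS1 and VCAN.

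In blood the highest correlations over all libraries were those among THBS1, VCAN and TGFBI. Over the 15 PBMC libraries THBS1 and TGFBI correlated with r = 0.78 (permutation p = 0.0011, rho = 0.72 with p = 0.00393), and with 0.69 without ORC_209 and OA_4110, the horses farthest from the median. THBS1 and VCAN gave r = 0.69 (permutation p = 0.00452, rho = 0.64 with p = 0.0131) and VCAN and TGFBI r = 0.63 (permutation p = 0.0128, rho = 0.63 with p = 0.0215). FN1 correlated with each of the other 4 at 0.56 to 0.60, and VCAN and SPARC gave 0.15. As in fluid, FN1 and SPARC correlated, with r = 0.60 (permutation p = 0.0336, rho = 0.63 with p = 0.0236). Without ORC_208 and ORC_197, the horses farthest from the median, their r was 0.86. Whether these correlations differ between fluid and blood was not tested.

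The genes whose values followed each member most closely within groups, among 12135 genes in fluid and 11462 in PBMC with a mean of at least 50, are given as a description. In fluid FN1 was most like the fibrillin gene FBN1, the collagen VI gene COL6A3 and the protocadherin-like FAT1 (r of 0.94 for each). SPARC was most like SGMS2, CAV2, a caveolin, and TNFAIP8L3 (r 0.91 to 0.92). TGFBI was most like PLOD1, a collagen lysyl hydroxylase, TMBIM1 and NOD1, an intracellular receptor for bacterial peptides (0.92 to 0.95). THBS1 was most like NAIP, an inflammasome receptor, the zinc transporter SLC30A4 and the unnamed ENSECAG00000024719 (0.85 to 0.89). VCAN was most like SNX10, NLRC4, the partner of NAIP in the inflammasome, and ILT11B (0.90 to 0.91).

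In PBMC, THBS1 was most like NLRP12, its own receptor gene CD36 and SLC22A5 (r 0.87 to 0.89), and VCAN most like the kinases PTK2B and MAP3K9 and the transcription factor KLF9 (0.89 to 0.90). TGFBI was most like ACSS3, NLRX1 and TBXAS1, the thromboxane synthase (0.94 for each). FN1 was most like NPAS1, ENSECAG00000038236 and ZFAND3 (0.76 to 0.85) and SPARC most like CPT2, SESN2 and MCOLN2 (0.74 to 0.77). These likenesses in blood were looser for FN1 and SPARC than for the other 3.

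Markers of several cell types also differed between OA and healthy samples. In bulk samples fewer cells of a type and less RNA per cell cannot be told apart. Of 18 stromal fibroblast markers 17 were in the fluid table, and 4 rose in OA fluid (COL6A3 by 4.39, COL5A2 by 4.08, COL5A1 by 3.92 and PDPN, podoplanin, by 3.81), with a list median of 3.54. Of all 13885 genes 14.4% were called higher there. The same list gave 12 rises with edgeR and 14 with DESeq2 on the recovered reads, and 16 without OA_9570 and ORC_202, an alternative added after the data were seen. Over all genes edgeR called 1947 and DESeq2 2509 of 13885 higher, and the fit without these horses 2805 of 13915. Their summed normalised count was 2799 to 799827 in OA fluid and 2685 to 169345 in healthy fluid. The sum was highest in OA_2615 and, among healthy horses, in ORC_188, the horses with the highest FN1 and SPARC of their groups, and it was lowest in OA_9570 and ORC_196, the horses with the lowest FN1 and SPARC. Its part in the fluid change of these genes was not tested. Without OA_9570 and ORC_202, FN1 had a fluid change of 4.77 and SPARC of 3.53, both called, and TGFBI one of 1.26, not called.

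In PBMC the stromal list was nearly silent. COL1A1 had an OA median of 0 and a highest healthy value of 10.6, DCN (decorin) was at 0 in every OA library, and 12 of the 16 markers in the table averaged below 10, so that the summed count of 1027 to 1818 in OA and 702 to 1829 in healthy horses came mostly from CLIC5 and THY1. FN1 was 1053 to 17701 in OA blood, and the cells it came from were not tested.

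Several monocyte markers were also higher in OA blood. Of 12 monocyte markers 7 were in the table, and 2 rose in OA PBMC: the chemokine receptor CCR2 by 1.17 and the calgranulin S100A12 by 1.40. The median of the 7 was 1.22, all 7 had an unadjusted p below 0.05, and 4 were called with equal library totals or edgeR and 6 with DESeq2. Of all 13072 genes tested in PBMC 3.2% were called higher, and 1813 were higher at an unadjusted p below 0.05. The alternatives called 400 of 13075 genes higher with equal library totals, and 505 with edgeR and 935 with DESeq2 of 13072. Their summed count was 83891 to 217575 in OA PBMC and 37008 to 125264 in healthy PBMC, lowest among OA horses in OA_4110, which also had the lowest OA blood values of FN1, THBS1, VCAN and TGFBI. Healthy horses did not all follow: the sum was highest in ORC_202. Its FN1 (104.4), VCAN (10110) and SPARC (236.6) were below the healthy medians of 699.0, 11789 and 574.9, while its THBS1 and TGFBI were above theirs. Of 8 macrophage markers tested 1 rose, MERTK, a receptor for dying cells, by 1.13 (4 called with DESeq2), with a sum of 7795 to 17514 in OA and 5426 to 8700 in healthy PBMC. The macrophage median was 1.13, and 6 of the 8 were higher at an unadjusted p below 0.05. Of 7 neutrophil markers, 2 of which are also in the monocyte list, S100A12 rose, with a sum of 33499 to 73417 in OA and 8651 to 42560 in healthy PBMC. The neutrophil median was 1.23, 5 of the 7 were higher at an unadjusted p below 0.05, and DESeq2 called 2. The rise in OA blood was thus not particular to the monocyte list. Of 12 platelet markers tested in PBMC none was called by limma, edgeR or DESeq2 and 1 had an unadjusted p below 0.05 (median 0.61), and their sum was 5151 to 10273 in OA and 1851 to 8599 in healthy horses, with P-selectin (SELP) averaging 4611 and 2397. The platelet markers PPBP and CLEC1B averaged below 10. The part of these cell types in the PBMC values was not tested.

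In fluid 1 of 7 monocyte markers rose, the scavenger receptor CD163 by 2.68, a share near the 14.4% of all genes called higher there, and the monocyte sum was 23254 to 167623 in OA and 31477 to 102166 in healthy horses. OA_9570 had the highest monocyte sum and the highest VCAN of the OA horses. Other horses did not keep that order: OA_2615 had the lowest OA VCAN (1233) at a sum of 104190. ORC_205 had the highest healthy sum (102166) with a VCAN of 504.5. The macrophage sum was 62242 to 559321 in OA and 11588 to 554786 in healthy fluid, with 1 of 11 markers called, APOE, the apolipoprotein, higher by 3.60, a call lost with equal library totals or TMM scaling. The median of the 11 was 1.19, and edgeR called 2 of them higher and DESeq2 3. At an unadjusted limma p below 0.05, 5 of the 11 were higher, beside 3111 of all 13885 genes. Platelet markers summed to 2041 to 10039.5 in OA and 448 to 11905 in healthy fluid, with 2 of 8 called higher, MMRN1 by 3.69 and GP1BB by 2.92. Both were low, with OA medians of 21.0 and 11.7 and healthy medians of 0. Equal library totals, TMM scaling, edgeR and DESeq2 each called 1 platelet marker higher. The more abundant SELP, F13A1 and ITGA2B were not called. Endothelial markers gave 1 call of 9 (VWF, von Willebrand factor, higher by 3.57) and neutrophil markers none of 6 (2 at an unadjusted limma p below 0.05, 1 called by edgeR and 2 by DESeq2). Neither of 2 erythroid markers was called by any of the 3 tools. Neither had an unadjusted limma p below 0.05, and 1 was lower at an unadjusted DESeq2 p below 0.05. Among 7 B cell markers 1, CD79A, fell by 3.39. In PBMC none of 12 T cell, 7 endothelial, 5 erythroid and 4 stromal markers was called by limma or edgeR. At an unadjusted limma p below 0.05, 3 T cell markers were lower, and 2 endothelial, 3 erythroid and 0 stromal markers were higher. DESeq2 called 2 endothelial and 2 erythroid markers higher, and 0 T cell and 0 stromal markers. The medians were -0.20 for T cell, 0.15 for endothelial, 1.79 for erythroid and 0.38 for stromal markers. Of 8 B cell markers 1, the kinase BLK, was called and fell by 1.09. The list median was -0.82, 6 of the 8 were lower at an unadjusted limma p below 0.05, and DESeq2 called 3 lower. The part of these cells in the fluid values was not tested.

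**Figure D5:**
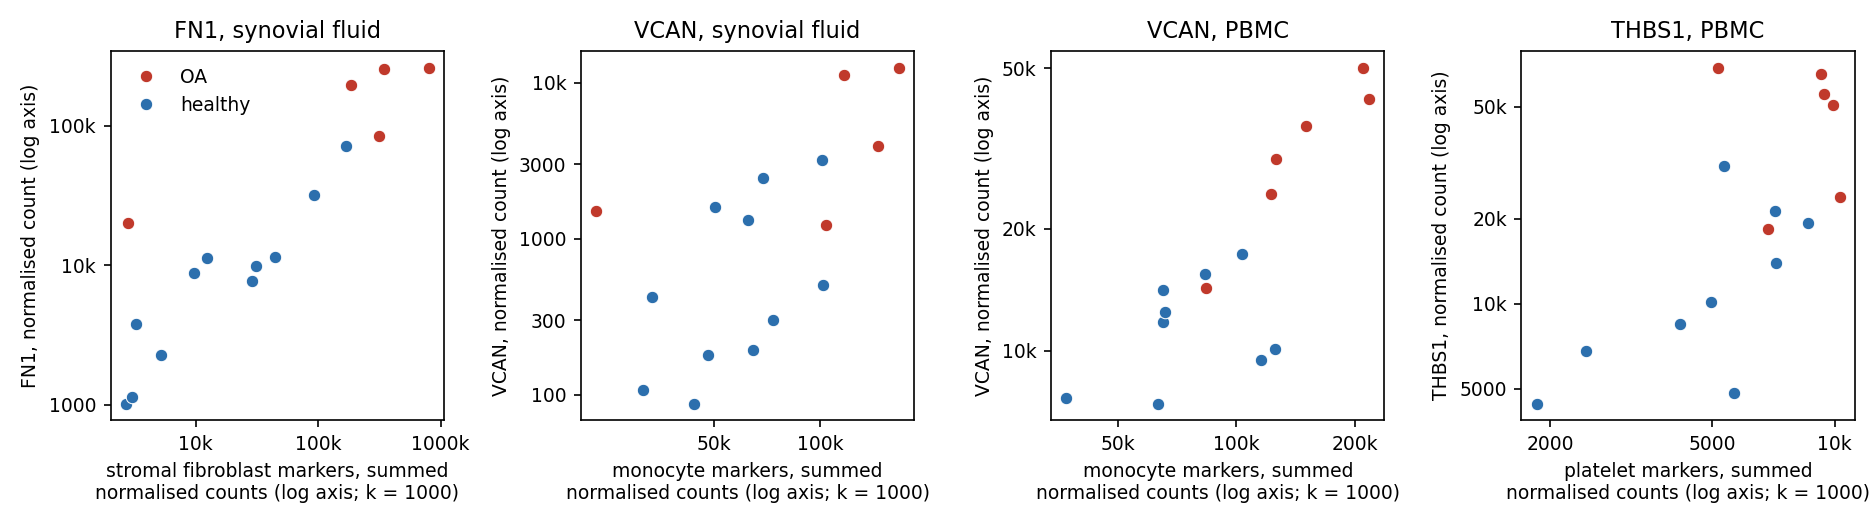
Normalised count of FN1 and VCAN in fluid and of VCAN and THBS1 in PBMC (vertical, log axis) against the summed normalised count of a list of cell type markers (horizontal, log axis), 1 point per library, OA in red and healthy in blue. In the FN1 panel OA_9570 is the OA point at the far left, with a stromal sum of 2799, and in the PBMC panel of VCAN OA_4110 is the lowest OA point, with a monocyte sum of 83891.

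The receptors and partners of the 5 proteins were read from lists chosen with earlier results known. Their counts stand beside 14.4% of all genes called higher and 13.6% called lower in OA fluid, and 3.2% called higher and 2.2% called lower in OA PBMC. Of 13 tested genes of fibronectin binding and assembly, 6 rose and 1 fell in OA fluid (median 1.33). Among them the urokinase receptor PLAUR rose by 2.94 (SE 0.62), the integrin subunit ITGB5 by 2.44, the crosslinking enzyme TGM2 by 2.15 and TNS1, a tensin of fibrillar adhesions, by 1.99. In PBMC 2 of 11 rose, PLAUR by 1.47 and the tensin TNS3 by 0.95 (median 0.20). PLAUR averaged 11902 in OA fluid and 2371 in healthy fluid, and 926.3 in OA PBMC and 322.5 in healthy PBMC.

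Of 11 tested thrombospondin receptors and partners 3 rose and 1 fell in OA fluid (median 0.29). The clotting inhibitor TFPI rose by 3.67, the endocytic receptor LRP1 by 2.29 and CD36 by 1.99, while the calcium sensor STIM1 fell by 0.82. In PBMC 1 of 10 rose, LRP1 by 1.31 (median 0.24). The hyaluronan-binding and other partners of versican gave 5 rises and no fall among 15 tested in OA fluid (median 1.35), among them aggrecan (ACAN, 5.26), TNFAIP6, which remodels hyaluronan (5.16), the link protein HAPLN1 (4.26) and fibulin 2 (FBLN2, 2.77). ACAN averaged 445.2 in OA and 15.9 in healthy fluid. Of 4 tested proteases that cleave versican, ADAMTS5 rose by 4.16 and ADAMTS4 by 3.71 (1 called by edgeR, and 4 without OA_9570 and ORC_202). In PBMC none of 9 versican partners was called by limma (median 0.22), while 3 were higher and 1 lower at an unadjusted limma p below 0.05. Both edgeR and DESeq2 called 1 higher, and no versican-cleaving protease passed the minimum mean of 10.

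Among the relatives of SPARC, 2 of 7 rose in OA fluid, SMOC2 by 4.43 and SMOC1 by 3.60, and SPOCK2 fell by 1.88. DESeq2 called 5 rises in this list, as did limma without OA_9570 and ORC_202. In PBMC none of 4 was called by limma, edgeR or DESeq2, and none had an unadjusted p below 0.05 (median 0.19). Of 17 tested genes of TGF-beta signalling and latency 5 rose and 2 fell in OA fluid (median 0.27): the latency protein LTBP1 rose by 3.81 and the co-receptor ENG (endoglin) by 2.08, and the signal transducer SMAD3 fell by 1.25. In PBMC 1 of 15 rose, ENG by 1.01 (median 0.27). ENG, LRP1, PLAUR and TNS3 were called higher in both tissues.

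Among other matrix genes, calls were frequent in OA fluid. Of 46 other matrix glycoproteins tested in fluid 20 rose and 1 fell (median 2.87), including CCN5 (5.40), the procollagen processing enhancer PCOLCE2 (4.41), ECM1 (3.20) and EMILIN1 (1.64). Without OA_9570 and ORC_202 the rises were 36, with a median of 3.96. Of 12 other proteoglycans 7 rose (median 3.72), including asporin (ASPN, 4.97), fibromodulin (FMOD, 4.57), PRELP (4.42) and biglycan (BGN, 3.62). BGN averaged 25986 in OA and 2174 in healthy fluid. In PBMC none of 23 other matrix glycoproteins (median 0.26) and none of 3 other proteoglycans (median 0.01) was called by limma or edgeR. At an unadjusted limma p below 0.05 there were 3 and 0 of them, and DESeq2 called 1 and 0. Calls in only one of the tissues are not shown to differ between them.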

How the data were processed

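RNA-seq was analysed from 31 libraries (5 OA and 11 healthy fluid, 6 OA and 9 healthy PBMC). The deposited values are a signal, read counts divided by a median-ratio size factor, with 1 table per tissue. Partek, cutadapt, STAR 2.7.3, HTSeq, DESeq and the build EquCab3.0 are named in the submitters' processing notes; how each was set is not given in the labels. Whole reads were recovered from the steps of the deposited signal: in each library 99.8% to 99.98% of values above 0 were whole to within 0.1 read. No libraries of a group agreed within sampling noise (smallest chi-square per gene 101 in fluid, 31.6 in PBMC).

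For genes averaging 10 or more, log2(value + 1) entered limma 3.58.1 (R 4.3.3, trend and robust), two-sided, with Benjamini-Hochberg adjustment over all genes and calls below 0.05. Changes on this scale understate low genes. The difference between tissues came from 1 fit of 4 group means with weights per tissue. Horse numbers pair the samples, since they name the animal. In 13 of 13 horses fluid and blood deviations correlated over 0.1 (0.123 to 0.391). Values for fluid set against another horse's blood are not given here, so these correlations do not test the pairing. Alternatives were a pseudocount of 8, no filter, a mean of at least 50, equal totals, TMM, array weights, edgeR 4.0.16, DESeq2 1.42.0, the replicate block and leaving out each library. Steps were tested on simulated data. The genes named are the 5, up to 4 called genes of smallest p per list (averaging 50 or more in the group where they are higher), the 2 genes of highest mean in marker lists without a call, and the 3 genes most alike per tissue; other genes named were chosen after their values were seen. Of the genes this rule names, 1 is not reported here. The 5 genes and the lists were chosen with earlier results of these data known.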

Additional observations from a re-analysis of the deposited data

How the results depend on the processing

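The fluid changes of FN1, THBS1, VCAN and SPARC stayed called in all 9 other settings run on the full or paired libraries. TGFBI in fluid was not called with no filter (1.24), equal library totals (1.04), TMM (1.18), edgeR (1.05), only the horses with both samples (1.05) or without OA_9570 and ORC_202 (1.26). In PBMC, FN1 was not called with no filter (3.73) or edgeR (2.83), nor TGFBI in horses with both samples (0.94). The cause was not tested. Paired within horses (replicate block), the FN1 difference between tissues was -0.54. The link of fluid and PBMC was -0.14 for THBS1 and 0.53 for SPARC without the 2 farthest horses. Genes called higher and lower in OA were 2006 and 1893 in fluid and 418 and 288 in PBMC. Equal library totals gave 1302 higher in fluid, moving the median of all genes from 0.08 to -0.12 and the higher share of calls from 51.4% to 32%. Array weights gave 3654 and 2981 in fluid and 1370 and 942 in PBMC, DESeq2 935 and 750 in PBMC, and the horses with both samples 175 lower in PBMC. Leaving out 1 library gave 1208 to 2575 higher in fluid, 14 (without OA_9570) to 690 higher and 17 (without OA_3850) to 519 lower in PBMC. The changes then ran from 2.63 to 3.46 for VCAN and 1.06 to 1.54 for TGFBI in fluid, and in PBMC from 3.29 to 4.19 for FN1, 1.78 to 2.18 for THBS1, 1.28 to 1.64 for VCAN and 0.76 to 0.96 for TGFBI. The difference between tissues ran from -0.13 to 1.04 for FN1 and 1.42 to 2.34 for SPARC, and the link from -0.29 to 0.57 for FN1, -0.10 to 0.38 for THBS1, -0.58 to 0.41 for SPARC and 0.26 to 0.62 for TGFBI. At least 30 reads lay behind each value of the 5 genes, and the part of read depth in the precision was not tested.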
